A study of Mus musculus with 8 samples.

Results

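Expression of 10 genes of the NRF2, glutathione and antioxidant system was measured in mouse osteoclast precursor cells cultured with and without PRDX1 and RANKL. The genes were Nfe2l2, Keap1, Slc7a11, Gclc, Gclm, Gsr, Gpx1, Nqo1, Sod2 and Cat. They were chosen by symbol, as a list of well-known components of this system, and all 10 were found among the 25124 genes of the deposited table. All 10 also had a mean of at least 0.5 FPKM (reads per kilobase of transcript, scaled to the library total) over the 8 libraries and were tested. The cells were bone marrow macrophages grown out with M-CSF, the survival factor of this lineage. The label of the sample sheet for strain was C57BL/6, with mice 6 to 8 weeks old, whereas the culture methods of the study named ICR mice. There were 4 groups of 2 cultures each, and every culture, control included, received 30 ng/mL M-CSF for 48 h. The no PRDX1 + no RANKL group received nothing else, the PRDX1 + no RANKL group 200 nM recombinant PRDX1, the no PRDX1 + RANKL group 100 ng/mL RANKL, and the PRDX1 + RANKL group both proteins together. PRDX1 is a peroxidase that here was added to the medium as a His-tagged protein made in bacteria and treated with an endotoxin-removal resin. RANKL is the cytokine that drives macrophages to become osteoclasts. No label says whether the cultures came from separate animals, so p-values measure the spread between cultures, which may be technical.

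PRDX1 raised Slc7a11, the light chain of the cystine importer, and Gclm, the modifier subunit of glutamate-cysteine ligase, both with and without RANKL. Mean Slc7a11 was 6.68 times as high with PRDX1 as without it in the absence of RANKL, and 4.89 times as high in its presence. RANKL alone lowered Gclm to 34.9%, Cat (catalase) to 40.5% and Gclc, the catalytic subunit of the ligase, to 53.3% of the control mean, and raised Sod2, the mitochondrial superoxide dismutase, 1.76-fold. With both proteins Gclm, Gclc and Cat lay between the 2 groups that received no PRDX1, whereas Slc7a11 was at its highest. Nqo1, widely used as a reporter gene of NRF2, was not called in any pairwise comparison.

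NRF2, the protein of Nfe2l2, is a transcription factor that KEAP1 holds in the cytoplasm and delivers for degradation. Oxidants and electrophiles modify cysteines of KEAP1, and NRF2 then accumulates, pairs with a small MAF protein and binds antioxidant response elements near genes of glutathione synthesis and detoxification. In osteoclast precursors RANKL signaling uses reactive oxygen species as messengers, and mice without NRF2 are known to form osteoclasts more readily.

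The 8 libraries held 27284654 to 46171828 reads in all and 24542578 to 41712973 on genes, as recovered from FPKM and transcript length. Replicate libraries were not copies of each other, as their reads differed beyond counting noise in every group (chi-square over degrees of freedom 4.59 to 9.19). The macrophage markers Csf1r and Adgre1 were at 220.3 to 527 FPKM in all libraries. The T cell marker Cd3e and the mast cell marker Cpa3 had 0 reads in all of them, and the neutrophil marker Ly6g had at most 8. Other markers from lists of other cell types were present. The neutrophil marker S100a8 had up to 321 reads, and the stromal markers Col1a1 and Col1a2 up to 1808 and 2071. Cd247, of the T and NK cell list, had group means of 1.62 to 2.16 FPKM. The summed level of 9 osteoclast markers was 34.4 to 35.3 FPKM in the control, 80.4 to 84.8 with PRDX1, 1834 to 1931 with RANKL and 235 to 243 with both. RNA of the whole culture was sequenced, in which fewer cells of a type and less RNA per cell cannot be told apart.

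Levels were compared on log2(FPKM + 1) by a single limma model fitted to 11700 genes in all groups. A gene was called when its Benjamini-Hochberg adjusted p over all these genes was under 0.05 and its change at least 1.5-fold. Fold changes on this scale understate those of genes with low FPKM, which among the 10 concerns Slc7a11 and Nqo1, the 2 lowest in every library. In a single comparison of 2 cultures with 2, an exact permutation test cannot go below a two-sided p of 0.333. The plot of the 10 genes by library shows the values behind all comparisons.

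**Figure D1:**
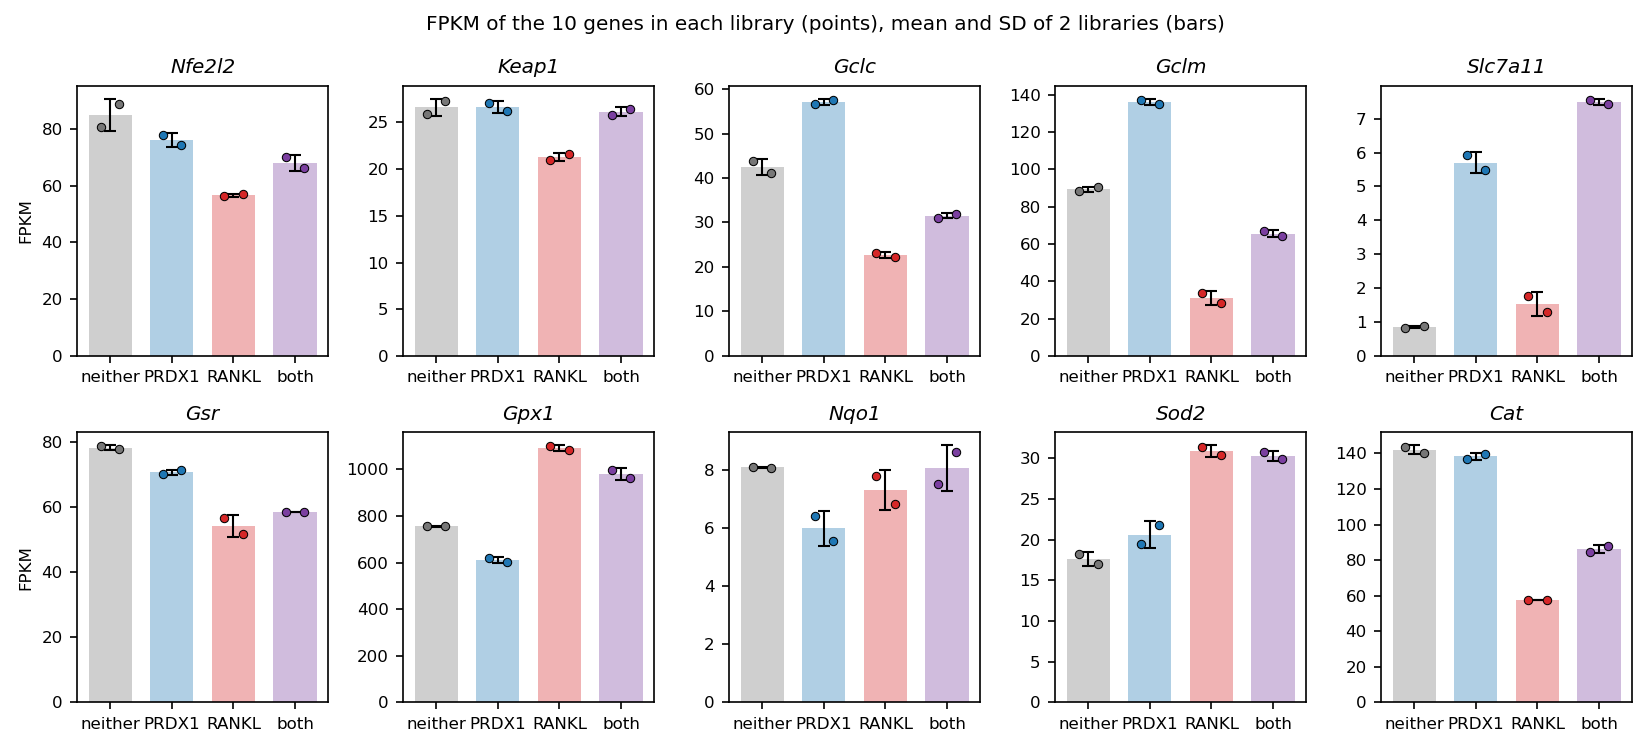
FPKM of each of the 10 genes in the 8 libraries (points) with the mean (bars) and SD of the 2 libraries per group (error bars), each gene on its own linear axis from 0; "neither" is no PRDX1 + no RANKL and "both" is PRDX1 + RANKL. Slc7a11 is high in the 4 libraries with PRDX1 (5.48 to 7.56 FPKM) and low in the other 4 (0.832 to 1.77 FPKM), whereas Gclm, Gclc and Cat are lowest with RANKL alone.

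The pair of regulators was described first. Nfe2l2 (NM_010902) spans bases 75675513 to 75704663 of chromosome 2 on the minus strand of mm10, with 5 exons. Positions of the 10 genes are those of the deposited table, and exons those of the GENCODE transcript paired with each RefSeq identifier. Its FPKM was 80.8 and 88.9 in the control, 77.8 and 74.5 with PRDX1, 56.3 and 57.0 with RANKL and 70.0 and 66.0 with both. The 4 groups did not overlap, the control was highest and RANKL alone lowest. Nfe2l2 was at 66.8% of the control with RANKL alone, a log2 difference of -0.57 ± 0.06 (SE), which passed the test of limma with Benjamini-Hochberg adjustment (adjusted p = 1.34e-05) but was a fold of 1.49, just under the one required. With upper quartile scaling of the libraries the difference was -0.64 and with quantile normalization -0.62, both past 1.5-fold. Within the cultures that received RANKL, Nfe2l2 was 0.26 higher on the log2 scale with PRDX1 than without (adjusted p = 0.00485), and this adjusted p became 0.0504 without PRDX1 + RANKL replicate 1. Without RANKL the difference with PRDX1 was -0.15 (adjusted p = 0.0725). It was -0.22 without replicate 1 of the control and -0.08 without replicate 2, with an adjusted p under 0.05 in the former case and with limma voom.

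Keap1 (NM_001110307) spans bases 21229730 to 21239332 of chromosome 9 on the minus strand, with 6 exons. The annotated antisense gene Gm16754 shares 510 of the 4664 exon bases that GENCODE gives within this span. Reads were counted without regard to strand, so those from shared bases cannot be told apart, and how many of the counted reads this concerns was not determined. Keap1 was at 26.0 and 27.3 FPKM in the control, 27.1 and 26.2 with PRDX1, 21.0 and 21.6 with RANKL and 25.8 and 26.5 with both. RANKL alone was the group that stood apart, below the other 6 libraries, which overlapped. The log2 difference by RANKL alone was -0.31 ± 0.05 (adjusted p = 7.23e-04, limma), less than 1.5-fold. PRDX1 made a difference of 0.29 with RANKL (adjusted p = 0.00204). Without RANKL it was 0.00 with a 95% interval of -0.12 to 0.13.

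Slc7a11 supplies the cysteine of glutathione by importing cystine in exchange for glutamate. The gene (NM_011990) spans bases 50364936 to 50443613 of chromosome 3 on the minus strand, with 12 exons. Its FPKM was 0.832 and 0.875 in the control, 5.92 and 5.48 with PRDX1, 1.77 and 1.29 with RANKL and 7.56 and 7.42 with both. These rested on 227 to 337 reads in the control libraries and 2866 to 3214 in those with both. The 4 groups were separate, and the lowest library with PRDX1 was above the highest without it.

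In the absence of RANKL, PRDX1 raised Slc7a11 by 1.85 ± 0.10 (SE) on the log2(FPKM + 1) scale (95% interval 1.62 to 2.08, adjusted p = 1.16e-06 by limma with Benjamini-Hochberg adjustment). In its presence the rise was 1.75 (adjusted p = 8.36e-07). The interaction, which is the effect of PRDX1 with RANKL minus the effect without, was -0.10 with an interval of -0.43 to 0.22 (adjusted p = 0.681). It was -0.37 with a pseudocount of 0.1 (adjusted p = 0.245) and -0.40 with limma voom on the recovered reads (adjusted p = 0.0807). RANKL alone gave a difference of 0.44 (adjusted p = 0.00395), which was under 1.5-fold on this scale. It was 0.76 with that smaller pseudocount and 0.80 with limma voom, both of which passed 1.5-fold. With both proteins the mean was 8.77 times that of the control, a ratio of means with no test.

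The summed levels of the neutrophil, stromal, dendritic cell and B cell marker lists were also higher with PRDX1. The summed level of 8 neutrophil markers was 7.79 to 12.2 FPKM in the control, 38.8 to 42.5 with PRDX1, 16.0 to 17.5 with RANKL and 34.1 to 37.1 with both, with the defining marker Ly6g at 0 to 0.279 FPKM and S100a8 at 3.15 to 18.0. For 6 stromal markers the sums were 7.58 to 10.3, 16.4 to 16.6, 7.53 to 9.37 and 14.5 to 18.5 in the same order. Their defining markers were Col1a1, at 2.74 to 7.34 FPKM, and Col1a2, at 3.63 to 9.56. For 6 dendritic cell markers, with Flt3 at 0.223 to 0.512 FPKM and Zbtb46 at 0.083 to 0.629, the sums were 2.28 to 2.85, 3.95 to 4.25, 2.75 to 3.13 and 5.08 to 5.98. This was the group order of Slc7a11, but here the control and RANKL overlapped. Cd209a of this list was lower with PRDX1 without RANKL (-0.49, adjusted p = 0.0316, limma) and was not called. For 4 B cell markers, all too low to be tested, the sums were 0.365 to 0.544, 1.02 to 1.33, 0.384 to 0.672 and 0.722 to 1.04. Of the markers tested, PRDX1 raised 4 of 5 neutrophil, 2 of 3 stromal and 2 of 3 dendritic cell genes without RANKL, and 3, 2 and 1 of them with RANKL, where 3.80% and 6.03% of all genes were called higher. Without RANKL it also raised 3 of 8 osteoclast genes and lowered 1, where 1.99% of all genes were called lower. The 4 neutrophil genes became 3 under quantile normalization. With limma voom or a pseudocount of 0.1 the stromal genes became 3 in both comparisons and the dendritic cell genes 2 with RANKL. By limma voom 1 dendritic cell gene was also called lower without RANKL. The part of all these markers in the Slc7a11 result was not tested.

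Gclc and Gclm encode the 2 subunits of glutamate-cysteine ligase, which makes the first and rate-limiting step of glutathione synthesis. Gclm (NM_008129) spans bases 122245557 to 122267215 of chromosome 3 on the plus strand, with 7 exons. Its GENCODE transcript has 5589 bases, beside a counted length of 2063. The antisense gene Gm17494 shares 296 and Gm6061, on the same strand, 244 of the 2774 exon bases that GENCODE gives within this span, and how many of the reads counted for Gclm this concerns was not determined. Gclm was at 88.3 and 90.3 FPKM in the control, 137 and 135 with PRDX1, 33.8 and 28.5 with RANKL and 66.7 and 64.1 with both. No groups overlapped, and the means differed 4.38-fold from lowest to highest. PRDX1 raised Gclm by 0.60 ± 0.07 (SE) in the absence of RANKL (interval 0.45 to 0.76, adjusted p = 1.62e-04, limma), a fold of 1.52 that lies just past the one required. In the presence of RANKL it raised Gclm by 1.05 (interval 0.90 to 1.21, adjusted p = 1.87e-06). RANKL lowered Gclm, with a log2 difference of -1.50 (adjusted p = 5.11e-08) where PRDX1 was absent and -1.05 (adjusted p = 2.62e-06) where it was present. With both proteins Gclm was at 73.3% of the control mean.

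Gclc (NM_010295) spans bases 77754535 to 77794489 of chromosome 9 on the plus strand, with 16 exons. Its FPKM was 43.8 and 41.2 in the control, 56.6 and 57.6 with PRDX1, 23.2 and 22.1 with RANKL and 31.1 and 32.0 with both, and no groups overlapped. The order of the groups was that of Gclm. RANKL lowered Gclc, with a log2 difference of -0.88 ± 0.05 without PRDX1 (adjusted p = 3.49e-07) and -0.84 with it (adjusted p = 1.91e-06). PRDX1 made a difference of 0.42 in cultures that had no RANKL (adjusted p = 3.11e-04, 1.34-fold). The difference was 0.46 in those that had it (adjusted p = 8.72e-05, 1.38-fold), and neither was called. Their interaction was 0.04 with an interval of -0.13 to 0.21.

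The ratio of Gclm to Gclc FPKM within a library, a measure per transcript length, was 2.02 and 2.19 in the control, 2.43 and 2.35 with PRDX1, 1.46 and 1.29 with RANKL and 2.15 and 2.01 with both. It was lowest in the 2 libraries with RANKL alone, and the control and the group with both overlapped. The ratio of Gpx1 to Cat, both of which remove hydrogen peroxide, was 5.26 and 5.38 in the control, 4.54 and 4.30 with PRDX1, 19.1 and 18.9 with RANKL and 11.8 and 10.95 with both. No groups overlapped in this second ratio, which is given as a description.

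**Figure D2:**
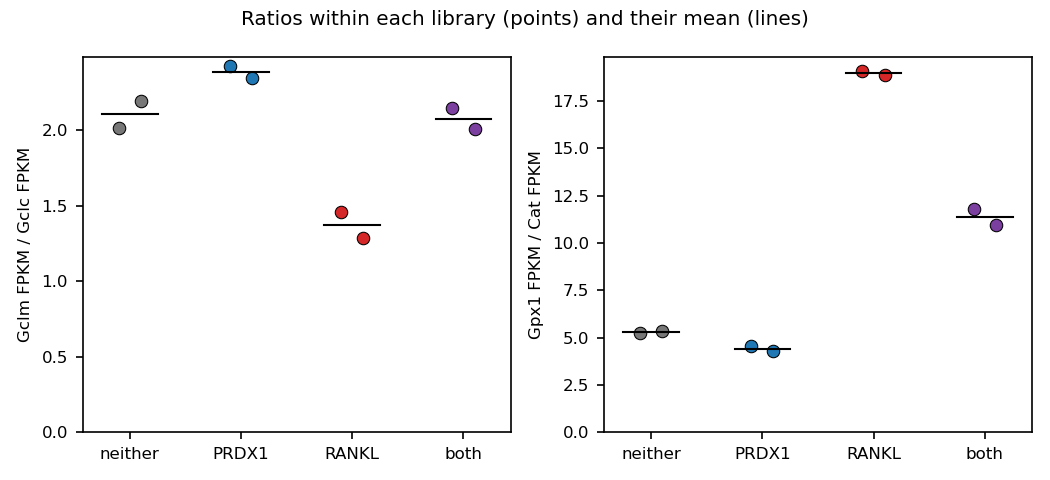
Ratio of Gclm to Gclc FPKM (left) and of Gpx1 to Cat FPKM (right) within each library (points), with the mean of the 2 libraries per group (lines), on linear axes from 0. RANKL alone has the lowest Gclm per Gclc (mean 1.37) and the highest Gpx1 per Cat (mean 19.0), and the group with both proteins lies between RANKL alone and the control in the right panel (mean 11.4).

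The sequences before the transcription starts of Slc7a11 and Gclm are shown because these were the members that PRDX1 raised. They are the 250 bases before the start in RefSeq on GRCm38.p6, written 5′ to 3′ on the strand of each gene, chr3:50443614-50443863 for Slc7a11 (minus strand) and chr3:122245307-122245556 for Gclm (plus strand). Capitals mark matches to the motifs searched. The core of the antioxidant response element was searched as TGACNNNGC and an ATF4-type composite element as TGATGNAA, where N is any base, on both strands.
Slc7a11: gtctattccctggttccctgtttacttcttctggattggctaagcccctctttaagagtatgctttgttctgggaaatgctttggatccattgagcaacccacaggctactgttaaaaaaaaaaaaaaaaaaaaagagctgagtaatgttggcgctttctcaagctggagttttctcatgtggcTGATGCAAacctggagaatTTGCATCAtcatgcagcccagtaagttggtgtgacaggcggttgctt
Gclm: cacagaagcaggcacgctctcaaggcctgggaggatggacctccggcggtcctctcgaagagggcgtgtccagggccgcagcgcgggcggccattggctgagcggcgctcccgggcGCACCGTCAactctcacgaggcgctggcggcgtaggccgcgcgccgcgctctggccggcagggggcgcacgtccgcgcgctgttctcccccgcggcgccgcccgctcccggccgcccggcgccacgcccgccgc
Slc7a11 held the ATF4-type letters at 66 to 59 bases before the start and again, on the opposite strand, at 47 to 40 bases. Gclm held the antioxidant response element letters once, on the opposite strand, at 134 to 126 bases before the start. Of the 10 genes 8 matched a RefSeq promoter, all but Gclc and Gsr, and for all 8 the start was the one in the deposited table. Among these 8, Nfe2l2 was the other one with a match to the antioxidant response element letters, at 240 to 232 bases before the start, and Slc7a11 the only one with the ATF4-type letters. The first motif was found in 10.2% of 32851 RefSeq promoter windows of this length and the second in 3.45%. A match of letters describes the sequence and not the binding of a factor.

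Gsr, glutathione reductase, returns oxidized glutathione to its reduced form with NADPH. The gene (NM_010344) spans bases 33653238 to 33698162 of chromosome 8 on the plus strand, with 13 exons. Its FPKM was 78.6 and 77.7 in the control, 70.1 and 71.2 with PRDX1, 56.6 and 51.8 with RANKL and 58.5 and 58.4 with both. The groups did not overlap, and the control was highest. RANKL alone gave a log2 difference of -0.52 ± 0.05 (adjusted p = 1.22e-05, limma), 1.44-fold and not called. With upper quartile scaling it was -0.59, past 1.5-fold. PRDX1 alone gave -0.14 relative to the control (adjusted p = 0.0613), and PRDX1 added to RANKL gave 0.11 (adjusted p = 0.120). The latter was 0.17 without no PRDX1 + RANKL replicate 1, with an adjusted p of 0.0203, and 0.05 without its replicate 2.

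Gpx1, the cytosolic glutathione peroxidase, was the most abundant of the 10 per transcript length in every library. The gene (NM_001329528) spans bases 108339080 to 108340342 of chromosome 9 on the plus strand. Its FPKM was 757 and 755 in the control, 622 and 602 with PRDX1, 1099.6 and 1082 with RANKL and 997 and 962 with both. The groups were separate, with the libraries that received RANKL above those that did not. RANKL raised Gpx1 by 0.68 ± 0.04 in the presence of PRDX1 (adjusted p = 8.66e-07, 1.60-fold). Without PRDX1 the difference was 0.53 (adjusted p = 1.31e-06), 1.44-fold and not called, and 0.21 under quantile normalization. PRDX1 gave -0.31 without RANKL (adjusted p = 2.86e-04). With RANKL it gave -0.16 (adjusted p = 0.00895), a difference that turned to 0.02 (adjusted p = 0.768) under quantile normalization and whose adjusted p was above 0.05 with upper quartile scaling and without PRDX1 + RANKL replicate 2.

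Cat and Sod2 act on peroxide and superoxide without glutathione. Cat (NM_009804) spans bases 103453904 to 103485153 of chromosome 2 on the minus strand, with 13 exons. It was at 144 and 140.4 FPKM in the control, 137 and 139.8 with PRDX1, 57.6 and 57.4 with RANKL and 84.7 and 87.8 with both. The 4 libraries without RANKL lay close together and far above the other 4, among which those with PRDX1 were the higher. RANKL lowered Cat, with a log2 difference of -1.29 ± 0.04 without PRDX1 (adjusted p = 4.66e-09) and -0.68 with it (adjusted p = 1.94e-06). With RANKL, Cat was 0.58 higher on the log2 scale with PRDX1 than without (adjusted p = 4.26e-06, limma), 1.49-fold and thus just short of a call. It was called under quantile normalization (0.64), upper quartile scaling (0.63) and without PRDX1 + RANKL replicate 1 (0.60). Without RANKL the difference was -0.04 with an interval of -0.13 to 0.06.

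Sod2 (NM_013671) spans bases 13007839 to 13018119 of chromosome 17 on the plus strand, with 5 exons. Its GENCODE transcript has 5861 bases, beside a counted length of 3817. Its FPKM was 18.2 and 17.0 in the control, 19.4 and 21.8 with PRDX1, 31.4 and 30.3 with RANKL and 30.7 and 29.8 with both. The libraries with RANKL were the highest, and among them those with and without PRDX1 overlapped. RANKL alone raised Sod2 by 0.78 ± 0.07 (adjusted p = 4.23e-06, limma). With PRDX1 present the difference by RANKL was 0.54 (adjusted p = 1.70e-04), 1.45-fold and not called, and it was 0.62 and called without PRDX1 + no RANKL replicate 2. PRDX1 gave a log2 difference of 0.22 without RANKL (adjusted p = 0.0344). Without PRDX1 + no RANKL replicate 2 that difference was 0.14 and its adjusted p 0.239, and the adjusted p was also above 0.05 without either control library, without either library of both proteins and in some of the other alternatives.

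Nqo1 encodes a quinone reductase. The gene (NM_008706) spans bases 107388225 to 107403205 of chromosome 8 on the minus strand, with 6 exons. Its FPKM was 8.11 and 8.08 in the control, 6.43 and 5.56 with PRDX1, 7.79 and 6.82 with RANKL and 7.51 and 8.62 with both, from 303 to 558 reads per library. PRDX1 alone was below the other 6 libraries. Among these the control lay above RANKL alone, and the group with both overlapped each of them. The log2 difference with PRDX1 was -0.38 ± 0.09 without RANKL (adjusted p = 0.0130, limma) and 0.13 with RANKL (adjusted p = 0.315). The adjusted p of the former was 0.0994 without PRDX1 + no RANKL replicate 2 and also above 0.05 without either control library. With 1 library left out the latter ranged from 0.04 (without PRDX1 + RANKL replicate 2) to 0.21 (without PRDX1 + RANKL replicate 1), and leaving out either library of RANKL alone moved it as far. Nqo1 differed in sign from Slc7a11 and Gclm in the first of these comparisons. RANKL gave -0.13 without PRDX1 (adjusted p = 0.248) and 0.37 with PRDX1 (adjusted p = 0.0104). The former was -0.22 without no PRDX1 + RANKL replicate 1 and -0.05 without its replicate 2. The adjusted p of the latter rose to 0.0960 without PRDX1 + RANKL replicate 2 and was also above 0.05 without PRDX1 + no RANKL replicate 2.

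Over the 10 genes, PRDX1 without RANKL had 2 calls, both higher, where 5.79% of all genes tested were called, 3.80% higher and 1.99% lower. The calls were Slc7a11 and Gclm, with 0 lower by limma and by limma voom, although 4 were lower at an unadjusted p under 0.05. At any fold 6 of the 10 passed the adjusted p, beside 29.8% of all genes. The median log2 difference of the 10 was -0.02 beside -0.04 over all genes, and it became 0.03 under quantile normalization and 0.02 with upper quartile scaling. With RANKL, PRDX1 again had 2 calls, the same genes and both higher, where 10.2% of all genes were called, 6.03% higher and 4.17% lower. Here 0 were called lower by either tool and 1, Gpx1, was lower at an unadjusted p under 0.05. At any fold 7 of the 10 passed, beside 42.5% of all genes. The median of the 10 was 0.27 beside -0.06 over all genes. In this comparison 4 of 8 macrophage markers were also called higher and 0 lower, and all 8 osteoclast markers tested were lower, and their part in the differences of Gclm and Cat was not tested. Differences of the 10 genes in all comparisons are shown in the plot with 95% intervals.

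RANKL without PRDX1 had 1 call higher (Sod2) and 3 lower (Gclm, Cat and Gclc) of the 10, where 21.8% of all genes were called, 11.8% higher and 9.96% lower. At any fold 9 of the 10 passed the adjusted p, all but Nqo1, beside 59.9% of all genes. The median of the 10 was -0.42 beside 0.10 over all genes. RANKL with PRDX1 had 1 higher (Gpx1) and 3 lower (the same 3 genes), where 8.50% were called, 4.52% higher and 3.98% lower. At any fold 9 of the 10 passed, all but Keap1, beside 40.6% of all genes, although Nfe2l2, Slc7a11 and Nqo1 did not pass in some of the alternatives. The median was -0.09 beside 0.07. Macrophage markers were lower in the same libraries. The summed level of 8 of them was 15718 to 17485 FPKM in the control, 16547 to 17009 with PRDX1, 9857 to 10278 with RANKL and 13421 to 13821 with both. Most of this sum was Lyz2, with a mean of 14117 FPKM in the control and 8597 with RANKL. With RANKL alone 6 of the 8 were called lower, with 8 of 8 tested osteoclast markers higher. Single macrophage markers then ranged from -0.25 for Cd68, not called, to -3.59 for Fcgr1. The part of these markers in the differences of Gclm, Gclc and Cat was not tested.

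**Figure D3:**
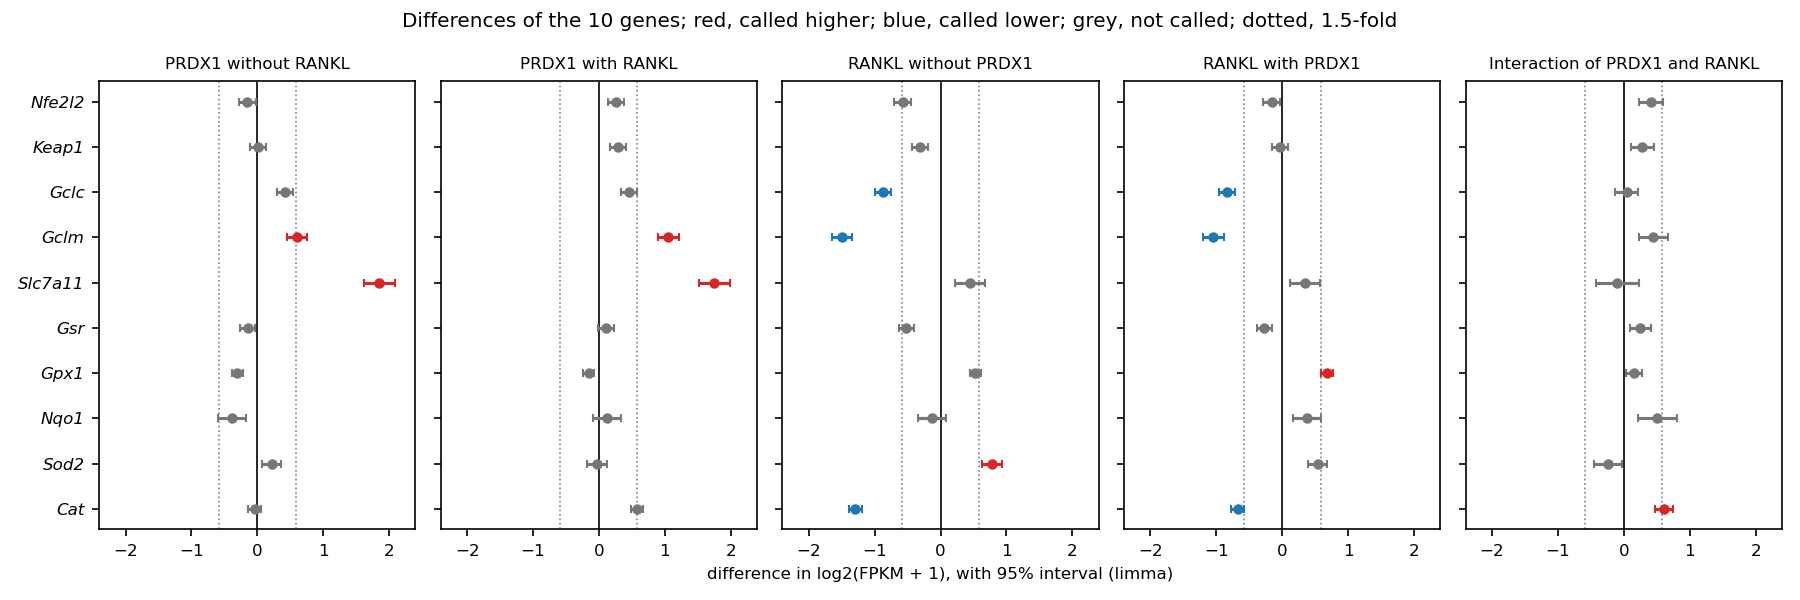
Difference in log2(FPKM + 1) of each of the 10 genes (points) with its 95% interval from limma (bars) in the 4 pairwise comparisons and the interaction; red marks a call higher, blue a call lower, grey no call, and dotted lines 1.5-fold. Slc7a11 (1.85 and 1.75) and Gclm (0.60 and 1.05) are the red points in the 2 comparisons of PRDX1, and Gclm, Cat and Gclc are the blue points in those of RANKL.

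The interaction was called for 1 of the 10 genes, Cat, where 8.85% of all genes were called, 4.50% higher and 4.35% lower. The effect of PRDX1 on Cat was 0.61 ± 0.06 larger with RANKL than without (adjusted p = 8.23e-05, limma). In all 6 of the 10 passed the adjusted p at any fold, as 23.1% of all genes did, and the other 5 had a larger value in the presence of RANKL too. These were Nqo1 at 0.51 (adjusted p = 0.0215), Gclm at 0.45 (adjusted p = 0.00934), Nfe2l2 at 0.41 (adjusted p = 0.00517), Keap1 at 0.28 (adjusted p = 0.0257) and Gsr at 0.25 (adjusted p = 0.0326). In the plot that sets the 2 effects against each other, these genes lie above the line of equal differences. The 2 comparisons on each pair of axes there share no library. Among the markers tested, the interaction was called higher for 3 of 8 of macrophages and lower for 8 of 8 of osteoclasts. Their part in the interactions of the 10 genes was not tested.

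**Figure D4:**
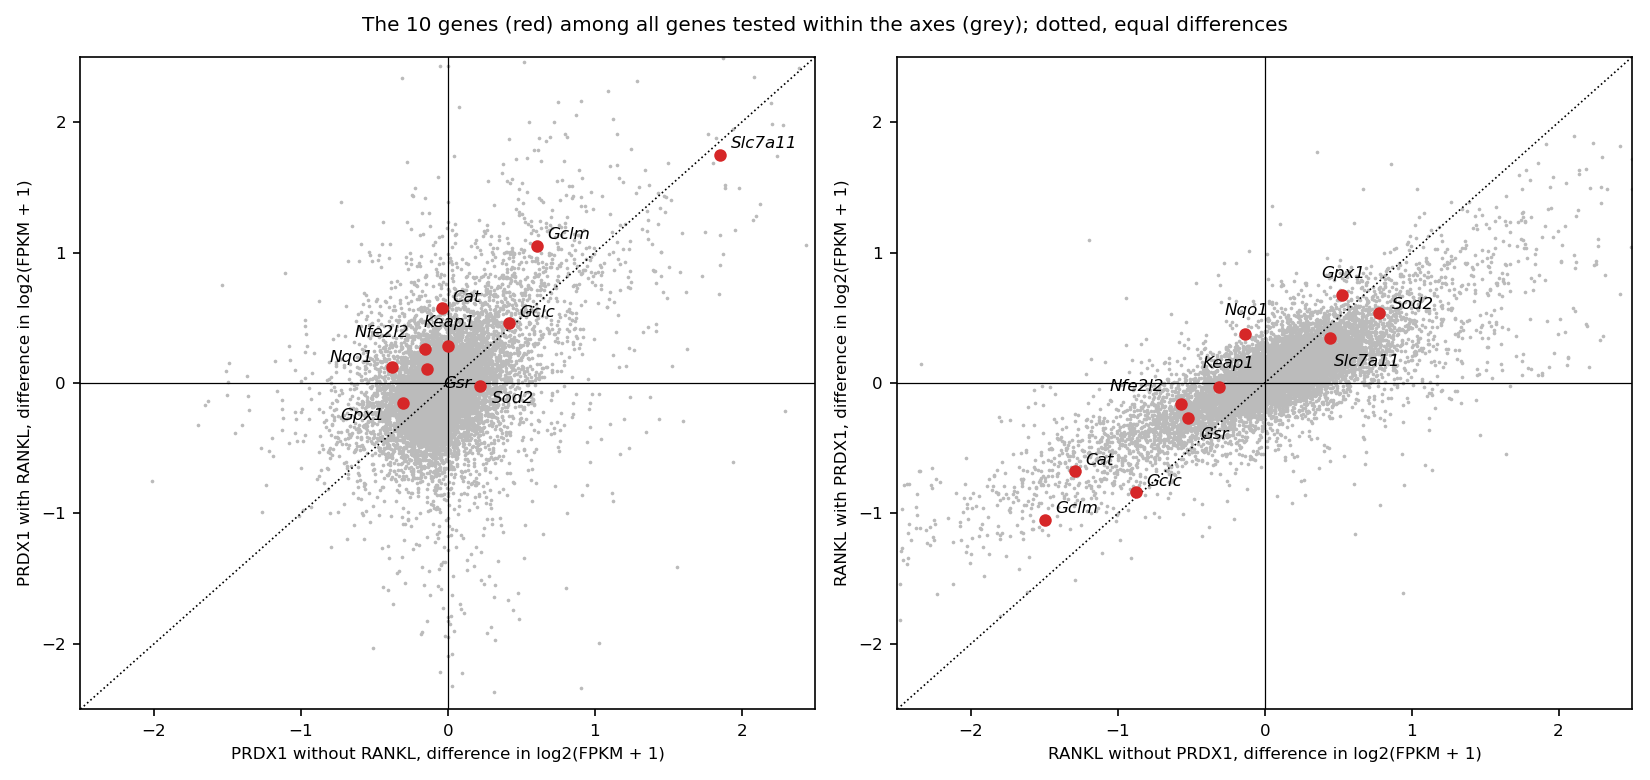
Differences in log2(FPKM + 1) by PRDX1 with RANKL against without RANKL (left), and by RANKL with PRDX1 against without PRDX1 (right), for the 10 genes (red, named) and all other genes tested within the axes (grey); the dotted line marks equal differences. On the left Slc7a11 lies near the line (1.85 and 1.75) and Cat above it (-0.04 and 0.58), and on the right Gclm (-1.50 and -1.05) and Cat (-1.29 and -0.68) lie above it.

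Related genes were described by 7 lists written by hand. Over all genes tested, the shares called higher and lower, given above, were 3.80% and 1.99% for PRDX1 without RANKL and 6.03% and 4.17% with it, and 11.8% and 9.96% for RANKL without PRDX1 and 4.52% and 3.98% with it. Among 12 tested regulators of NRF2, PRDX1 raised Sqstm1 both without RANKL (0.82, adjusted p = 3.20e-06) and with it (0.85, adjusted p = 1.12e-06), where 1 was called in each case. Sqstm1 encodes p62, which binds KEAP1. RANKL alone lowered 1 of them, the small MAF gene Mafg (-0.79, adjusted p = 5.48e-07). With PRDX1 present 0 of the 12 were called for RANKL by limma or limma voom, and 3 had an unadjusted p under 0.05.

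Of 12 tested genes of glutathione synthesis, turnover and export, 1 was called without RANKL, where PRDX1 raised Slc3a2, the heavy chain that pairs with the Slc7a11 protein, by 0.69 (adjusted p = 3.73e-05). With RANKL it raised Slc3a2 by 0.998 (adjusted p = 1.45e-06) and lowered the glutamine carrier Slc1a5 (-0.74, adjusted p = 5.79e-06). Mean Slc3a2 was 127 FPKM in the control, 205 with PRDX1, 68.7 with RANKL and 138 with both. Unlike Slc7a11, Slc3a2 was lower with RANKL alone than in the control (-0.88, adjusted p = 1.29e-06). RANKL alone raised 3 genes of this list and lowered 1, Slc3a2. Those raised included Slc1a5 (1.48, adjusted p = 1.39e-08) and Chac1, which degrades glutathione (1.28, adjusted p = 2.80e-06). Their number became 2 with quantile normalization or upper quartile scaling. With PRDX1 present RANKL raised 1, Slc1a5 (0.80, adjusted p = 4.51e-06).

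Among 28 tested enzymes that use glutathione, PRDX1 raised 3 without RANKL, the transferase Gsta3 (1.13, adjusted p = 1.06e-04), glutaredoxin Glrx (0.95, adjusted p = 7.26e-07) and the microsomal transferase Mgst1 (0.80, adjusted p = 1.25e-05). With RANKL 5 were higher and 5 lower, with Mgst1 at 1.91 (adjusted p = 1.62e-08), Glrx at 0.90 (adjusted p = 5.19e-07) and the glyoxalase Hagh at -1.24 (adjusted p = 1.55e-06). RANKL alone raised 7 of the 28 and lowered 5, where 11.8% of all genes were higher and 9.96% lower. Gstt1 went from a mean of 0.131 to 8.55 FPKM (adjusted p = 6.67e-09), Mgst1 from 57.3 to 9.58 FPKM (adjusted p = 6.49e-10) and the secreted peroxidase Gpx3 from 13.7 to 2.75 FPKM (adjusted p = 3.68e-06). With PRDX1 present RANKL raised 2 and lowered 3, which became 3 and 6 with limma voom, 1 and 4 with quantile normalization and 1 and 3 with upper quartile scaling.

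Among 18 tested superoxide and peroxide enzymes outside the 10, PRDX1 without RANKL raised 1, the methionine sulfoxide reductase Msrb1 (0.63, adjusted p = 4.95e-05), a call lost without no PRDX1 + no RANKL replicate 2 (0.58) or PRDX1 + no RANKL replicate 1 (0.55). With RANKL it raised the cells' own Prdx1 mRNA (1.02, adjusted p = 2.60e-07) and Prdx5 (0.68, adjusted p = 2.28e-06) and lowered Prdx2 (-0.60, adjusted p = 2.06e-06), the last of which was not called with quantile normalization (-0.49) or upper quartile scaling (-0.55). Mean Prdx1 was 1258 FPKM in the control, 1775 with PRDX1, 593 with RANKL and 1207 with both, the same order of groups as Gclm. RANKL alone raised 2 and lowered 2 of this list, which became 1 and 2 with quantile normalization or upper quartile scaling. With PRDX1 present 0 were called for RANKL by limma or limma voom, 1 was called lower with upper quartile scaling, and 12 had an unadjusted p under 0.05.

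Among 27 tested other genes linked to NRF2, 2 were higher and 1 lower with PRDX1 in the absence of RANKL. Hmox1, heme oxygenase 1, rose by 0.90 (adjusted p = 7.36e-06) and the protein C receptor Procr by 0.83 (adjusted p = 0.00103), and the epoxide hydrolase Ephx1 fell by 0.76 (adjusted p = 0.00116), a call lost without no PRDX1 + no RANKL replicate 1 (-0.58). In the presence of RANKL 9 were higher and 0 lower by limma and by limma voom, although 7 were lower at an unadjusted p under 0.05. Of all genes 6.03% were higher and 4.17% lower in this comparison. Among the markers tested, 4 of 8 of macrophages were higher and 8 of 8 of osteoclasts lower, and their part in these counts was not tested. The iron exporter Slc40a1 rose by 2.34 (adjusted p = 5.04e-09) and Hmox1 by 1.63 (adjusted p = 4.90e-08). Mean Slc40a1 was 59.0 FPKM in the control, 47.4 with PRDX1, 1.18 with RANKL and 10.0 with both. Without RANKL its difference with PRDX1 was -0.31 (adjusted p = 0.00302, limma). RANKL alone raised 4 and lowered 12, where 11.8% of all genes were higher and 9.96% lower, and these counts became 2 and 11 under quantile normalization. RANKL with PRDX1 present raised 1 and lowered 6. Mean Hmox1 was 226 FPKM in the control, 422 with PRDX1, 54.6 with RANKL and 171 with both, an order again shared with Gclm. The list's median was 0.11 and 0.25 in the comparisons of PRDX1 and -0.39 and -0.33 in those of RANKL, beside -0.04, -0.06, 0.10 and 0.07 over all genes.

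Glutathione reductase and the NADPH oxidases both draw on NADPH. Of 16 tested genes of NADPH supply, 0 were called for PRDX1 without RANKL by limma. At an unadjusted p under 0.05, 3 were higher and 8 lower. By limma voom 1 was called higher and 1 lower, and 1 was called lower with a pseudocount of 0.1. With RANKL, PRDX1 lowered 2, Aldh1l1 (-0.77, adjusted p = 5.29e-05) and the mitochondrial isocitrate dehydrogenase Idh2 (-0.68, adjusted p = 5.07e-06). Here 1 was also called higher with upper quartile scaling, limma voom or a pseudocount of 0.1. RANKL alone raised 3 and lowered 3. The number higher became 1 with quantile normalization or upper quartile scaling and 5 with limma voom or a pseudocount of 0.1. Called were the NAD kinase Nadk at 1.75 (adjusted p = 8.83e-10), the pentose phosphate enzyme Pgd at -1.02 (adjusted p = 8.15e-08) and malic enzyme Me1 at -0.71 (adjusted p = 1.24e-05), among others. With PRDX1 present RANKL raised 1, Nadk (1.25, adjusted p = 4.63e-08, limma), and lowered 1, Pgd (-0.63, adjusted p = 9.08e-06). Of 11 tested genes of the NADPH oxidases, PRDX1 without RANKL raised 1, the proton channel Hvcn1 (0.60, adjusted p = 4.30e-05), a call lost without no PRDX1 + no RANKL replicate 1 or PRDX1 + no RANKL replicate 2. With RANKL it raised 2, the catalytic subunit Cybb (0.92, adjusted p = 5.69e-07) and Ncf1 (0.66, adjusted p = 1.43e-06), and the number became 3 with quantile normalization, upper quartile scaling, limma voom or a pseudocount of 0.1. RANKL alone raised 2 and lowered 2 of this list. Ncf4 was higher (1.20, adjusted p = 1.45e-08), as was Nox1 (0.63, adjusted p = 0.00322), and Cybb (-1.13, adjusted p = 3.91e-08) and Cybc1 (-0.59, adjusted p = 1.10e-05) were lower. Nox1 was not called with quantile normalization (0.57), upper quartile scaling (0.58), without no PRDX1 + no RANKL replicate 1 (0.42) or without no PRDX1 + RANKL replicate 1 (0.55). Cybc1 is outside the rule for named genes and was added, after its values were seen, to complete the count.

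**Figure D5:**
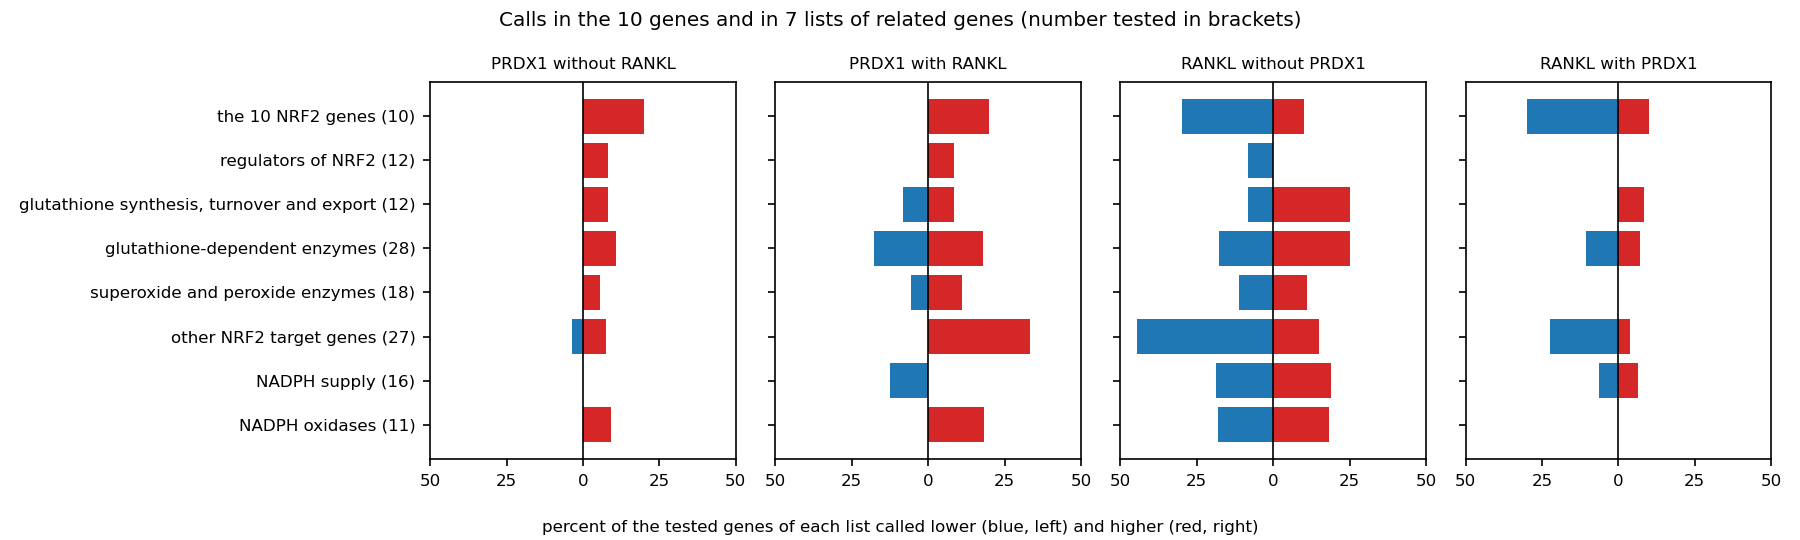
Percent of the tested genes called higher (red, to the right) and lower (blue, to the left) in the 10 genes and the 7 related lists, for the 4 pairwise comparisons; the number tested stands in brackets. The list of other NRF2 target genes has 9 of 27 higher with PRDX1 in the presence of RANKL and 12 of 27 lower with RANKL alone.

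Genes with the pattern most like that of the 2 members that varied most were sought by the root mean square difference between centred group means of log2(FPKM + 1) over the 4 groups. For Slc7a11 these were Slpi (0.12), Irf7 (0.14) and Marco (0.16), which encode a secreted protease inhibitor, an interferon regulatory factor and a scavenger receptor. Mean Marco, for example, was 6.31 FPKM in the control, 33.5 with PRDX1, 9.12 with RANKL and 32.8 with both. For Gclm they were Tbxas1 (0.07), Cd84 (0.08) and Slc28a2 (0.08), which encode thromboxane synthase, a receptor of the SLAM family and a nucleoside transporter. Mean Cd84 was 138 FPKM in the control, 213 with PRDX1, 43.1 with RANKL and 103 with both. With 4 groups such likeness is a description only.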

How the data were processed

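RNA-seq of 8 cultures was analysed, 2 in each of 4 groups. The authors aligned reads with HISAT2 to mm10 and counted them with HOMER on the exons of 1 transcript per gene, on both strands, and deposited FPKM. DESeq2, which is also named in their processing notes, was not used here. The deposited table also gives each gene's transcript length and position. Multiplied by length, FPKM came out as whole reads, within 0.02 of a read and the rounding of the file, for 100% of the genes checked. The model of limma 3.58.1 (R 4.3.3) took log2(FPKM + 1) of all 4 groups, with a variance prior that follows the mean, and kept the 11700 genes whose FPKM averaged 0.5 or more. The genes, lists and comparisons were chosen with earlier results of these data known. Named genes were the 10, up to 3 called genes with the largest change per related list and pairwise comparison, and the 3 nearest in pattern to the 2 most variable of the 10. The fit was tested on simulated data. Alternatives were the pseudocount, the filter, quantile and upper quartile scaling, voom, no trend, only the groups compared, a replicate block and leaving out each library. There were 0 columns of per-sample values left unused. Intervals cover the spread between cultures of this experiment.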

Additional observations from a re-analysis of the deposited data

Results flagged for a closer look

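The effect of PRDX1 differed between cultures with and without RANKL, by a test of the difference itself in limma with Benjamini-Hochberg adjustment, for 6 of the 10 genes at any fold, as for 23.1% of all genes tested. At 1.5-fold or more this was 1 of the 10, Cat, beside 8.85%. By the same test 3 of 8 macrophage markers were called higher and 8 of 8 osteoclast markers lower, and their part was not tested. The difference was 0.61 on the log2 scale for Cat, whose effect was -0.04 without RANKL and 0.58 with it, and 0.45 for Gclm, with effects of 0.60 and 1.05. For Nfe2l2 it was 0.41, with effects of -0.15 and 0.26. Across all alternatives, libraries left out included, the highest adjusted p of this difference was 0.00145 for Cat, 0.0423 for Gclm and 0.0285 for Nfe2l2. For Nqo1 the difference was 0.51, for Keap1 0.28 and for Gsr 0.25, and for these 3 genes the adjusted p was above 0.05 in some of the alternatives, at most 0.0940 for Nqo1, 0.106 for Keap1 and 0.104 for Gsr. Cat, Nfe2l2, Gsr and Nqo1 had an effect below 0 without RANKL and above 0 with it, but that of Cat without RANKL turned to 0.0135 under quantile normalization. For Gsr neither effect had an adjusted p under 0.05 as reported (0.0613 without RANKL and 0.120 with it), but each did in some of the alternatives, the former with limma voom among them and the latter with quantile normalization and upper quartile scaling.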

How the results depend on the processing

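The number of the 10 genes called was the same in all alternatives but those named here. For the interaction it was 2 rather than 1 with voom on the recovered reads, and 1 to 2 when each library was left out, with Nqo1 (0.59 to 0.60) added without replicate 1 of PRDX1 + no RANKL, of no PRDX1 + RANKL or of PRDX1 + RANKL. For PRDX1 with RANKL, Cat made it 3 with quantile normalization, upper quartile scaling or without PRDX1 + RANKL replicate 1. For RANKL alone it was 5 with a pseudocount of 0.1, quantile normalization, voom or without no PRDX1 + no RANKL replicate 1, and 6 with upper quartile scaling, where Nfe2l2 and Gsr were added. For RANKL with PRDX1 it was 5 without PRDX1 + no RANKL replicate 2. Single genes changed sign in 8 cases, in which the main difference was between -0.16 (Gpx1) and 0.04 (Gclc). Under quantile normalization Cat without RANKL became 0.0135 for PRDX1, and with RANKL Gpx1 became 0.0159 and Sod2 0.0305, with Sod2 also at 0.0225 with upper quartile scaling. With each library left out, Keap1 without RANKL ranged from -0.0303 (without no PRDX1 + no RANKL replicate 1) to 0.0379 and was -0.0198 without PRDX1 + no RANKL replicate 1. The interaction of Gclc ranged from -0.00144 (without no PRDX1 + no RANKL replicate 1) to 0.0842, and that of Slc7a11 from -0.24 to 0.0360 (without no PRDX1 + RANKL replicate 1). The interaction of Gpx1 was 0.42 under quantile normalization (adjusted p = 4.87e-04). In the related lists, counts of 1 became 2 with a pseudocount of 0.1 and with voom for regulators of NRF2 (PRDX1 with RANKL, RANKL alone), for glutathione synthesis (PRDX1 in both comparisons, RANKL with PRDX1) and for the other genes linked to NRF2 (higher, RANKL with PRDX1). The counts of glutathione synthesis for PRDX1 also became 2 with upper quartile scaling. The cause was not tested. In 14 cases a result crossed to a call, and 818 kept direction and side.

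Replicate numbers were not taken as pairs, since deviations of cultures with the same number correlated at 0.008 to 0.096 and no label ties them. Replicate numbers here are those of the labels and of the column names, whereas the command line in the header of the table numbers its input directories differently in some groups, so the numbering itself is in doubt. With the replicate number as a block, 2, 2, 4 and 4 of the 10 genes were called in the comparisons of PRDX1 without and with RANKL and of RANKL without and with PRDX1, and 1 for the interaction, and no call among the 10 changed. With 2 cultures per group, differences under 1.5-fold rest on a shared estimate of the spread, and leaving out 1 culture assumes that the lone one varies like the others.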
